A study of Mus musculus with 12 samples.

Results

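The transcripts described here were nearly all annotated as non-coding forms but arose from protein-coding zinc finger genes of the mouse. Members were all rows of a count table of mostly non-coding transcripts whose gene, in the GENCODE vM21 annotation of GRCm38, was protein-coding and named Zfp followed by 3 digits. Genes on chromosomes X and Y were left out, which removed 6 rows. The rule used names and annotation only and no measured value. It found 341 of the 48033 rows, from 157 genes, among 309 autosomal genes with such a name in the annotation. The annotation called 179 of these rows retained introns (106 genes) and 160 processed transcripts (89 genes). One further row was annotated as a nonsense-mediated decay transcript and another, of Zfp952, as protein coding.

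The counts came from bulk RNA of 2 brain regions, hippocampus and cerebral cortex, of mice aged 7 months on a C57BL/6J background. WT animals were non-transgenic, and 5×FAD animals carried human APP and PS1 transgenes with familial Alzheimer's disease mutations, expressed in neurons from Thy1 promoter elements. There were 3 libraries for each region and genotype, 12 in all, and the 3 libraries of a group came from 3 mice. Cortex and hippocampus were taken from the same mice, so the regions are not independent samples, although the labels do not state that equal library numbers are 1 mouse. The series stated that each genotype consisted of 2 females and 1 male. In the table, however, Xist, the RNA of the inactive X chromosome, had 30449 to 46604 counts in 5×FAD libraries 1 and 2 of both regions and 4 to 25 in all others. The summed Y-linked genes Kdm5d, Eif2s3y, Uty and Ddx3y had 0 counts in those 4 libraries and 1074 to 1661 elsewhere, so the WT libraries did not match the stated composition. The 5×FAD libraries 1 and 2 therefore differed from WT in these transcripts as well as in genotype, and the leading genotype results are given with and without them.

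A C2H2 zinc finger is a short protein loop in which a pair of cysteines and a pair of histidines hold a zinc ion, and arrays of such loops read DNA sequence. Many mouse Zfp proteins also carry a KRAB domain, which binds the corepressor Trim28. Trim28 in turn brings the histone methyltransferase Setdb1 and heterochromatin proteins, and this route is known for silencing retrotransposons and for keeping imprinted marks. Genes of this type lie in clusters of similar copies, which arose by duplication. A retained-intron transcript keeps an intron that the coding transcripts splice out, while a processed transcript is a spliced form without an annotated reading frame.

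Of the 157 genes, 73 had a single row, 37 had 2 rows and 47 had 3 or more, with a maximum of 11 for Zfp638. Translation of the longest annotated reading frame gave a median of 10 C2H2 fingers per protein, and Zfp142 had the most, 36. No finger matched the search in Zfp330, Zfp365, Zfp474 and Zfp957. One of the KRAB signatures searched was found in 83 genes. Chromosome 7 alone held 44 genes and 80 rows. In all, 92 genes lay within 200000 bases of another gene so named, and 65 of these had a KRAB match, compared with 18 of the 65 genes that stood alone.

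Some retained introns could be read directly in the annotated sequences. A whole intron of a coding transcript, with at least 10 exon bases on each side, was contained in 47 rows. These were 43 of the 179 retained-intron rows and 4 processed transcripts, so most rows annotated as retained introns held no whole intron by this rule. The 47 rows covered 58 introns of 68 to 3394 bases (median 447). The 5′ ends of such introns in the 6 rows with the most counts are shown because they are the annotated intron starts that these rows contain. An intron of a coding transcript may be exon in another coding transcript of the gene, and reads over these introns were not examined. Each line gives 10 bases before the intron and its first 20 bases, 5′ to 3′ on the transcribed strand, from GENCODE vM21 transcripts (GRCm38), and the capitals mark the first 2 intron bases.
Zfp740, chr15:102208352-102208381, plus strand: tgttaaaaagGCaggtaatggggaagcccc
Zfp865, chr7:5031270-5031299, plus strand: ggccggagagGTggggacggctgtggcagc
Zfp687, chr3:95009056-95009085, minus strand: gcatctcaagGTacaggaggaacaaaggct
Zfp523, chr17:28201431-28201460, plus strand: atccatacagGTgggccagctggtgtgtga
Zfp326, chr5:105886419-105886448, plus strand: ggggtagcagGTaataaattgcttaatcac
Zfp653, chr9:22056394-22056423, minus strand: atccattcagGTcaggccctgccagctaga

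Over all 67 pairs of a row and an intron, 66 began with GT, the usual donor, and 1 with GC, a rarer donor that the spliceosome also uses. That 1 was the intron of Zfp740, in the row with the most counts of all members. Every one of the 67 ended with AG, and the Zfp740 intron ended as follows, with the last 2 intron bases in capitals.
Zfp740, chr15:102208733-102208762, plus strand: tgcctgattgttgcccccAGgtggtggtag

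The rows were not made of intron alone. At the median, 23.3% of a row's bases were coding and 15.6% were untranslated sequence of the gene's coding transcripts, and 42.8% lay outside their exons. Retained-intron rows had a median of 50.8% outside coding-transcript exons and processed transcripts 32.4%. Bases that code for a zinc finger were contained in 99 rows. For each row, the share of its 31-base words found in no other annotated transcript was counted. That share was under 10% in 107 rows and 0 in 30, while in 191 rows every word was specific to the gene. Where a row shares its words with the coding transcripts of its gene, reads of the mRNA and of the row cannot be told apart by sequence.

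The Zfp rows together took 0.354 to 0.441% of the counts of each library, which held 3517967 to 5014389 counts. The summed level, in CPM (counts scaled to library size with TMM normalization), was 3884 ± 114 (SD, n = 3) in WT hippocampus and 4015 ± 456 in 5×FAD hippocampus. In cortex it was 3799 ± 194 in WT and 3831 ± 254 in 5×FAD. The 4 ranges overlapped. Retained-intron rows carried most of this level: 3204 ± 123 and 3261 ± 334 CPM in WT and 5×FAD hippocampus, and 3034 ± 237 and 3156 ± 257 CPM in WT and 5×FAD cortex. Processed transcripts reached 662 ± 18.97 and 737 ± 168 CPM in hippocampus and 749 ± 44.9 and 656 ± 30.8 CPM in cortex, in the same order. In cortex the 3 WT libraries had 701 to 791 CPM of processed transcripts, above the 621 to 678 CPM of the 3 5×FAD libraries, whereas in hippocampus the genotypes overlapped. The cortical sums include a row of Zfp697, described below, that was itself higher in all 3 WT libraries. Without that row the cortical ranges of the genotypes overlap, because WT cortex library 1 then lies below the 5×FAD cortex libraries. The separation of these sums therefore rests on that row. As these were bulk samples, fewer cells of a type and less RNA per cell cannot be told apart.

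**Figure D1:**
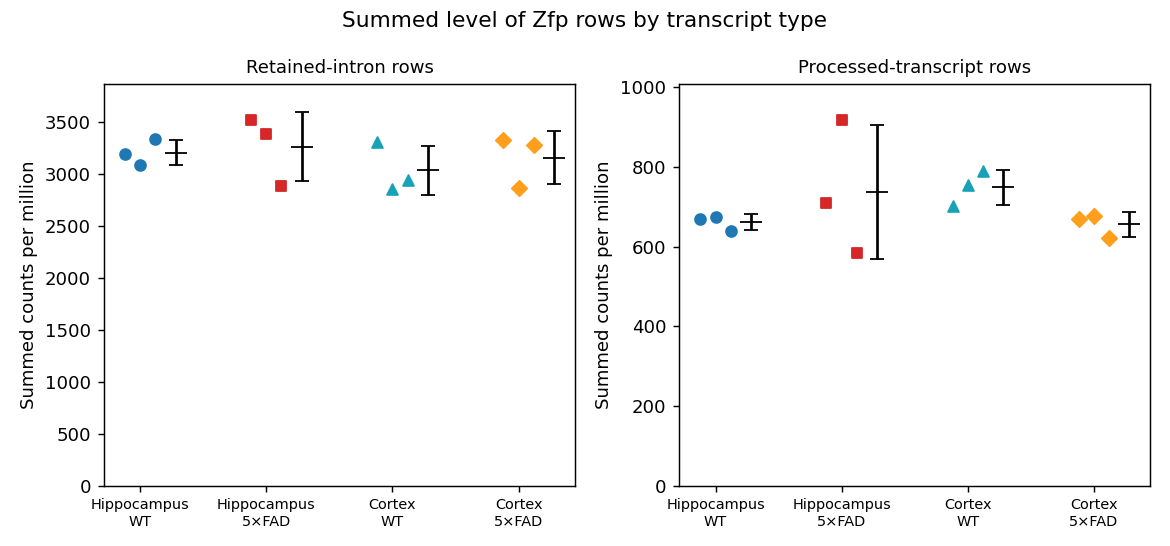
Summed level of Zfp rows in each library, in CPM (vertical axes from 0), for retained-intron rows (left) and processed-transcript rows (right) in the 4 groups. Points are libraries, and the black bar with whiskers is the mean ± SD of 3 libraries. The groups overlap for retained introns, and the processed transcripts of WT cortex, with a row of Zfp697 included, lie above those of 5×FAD cortex. Without that row the cortical ranges overlap.

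Detection was broad. Counted over its rows, a gene had more than 3 counts in every library in 118 of 157 cases, while 12 genes stayed at 3 counts or fewer throughout, 8 of them at 0. Each library had 131 to 137 genes over 3 counts, with groups overlapping. Among rows, 134 of 179 retained introns were over 3 counts in every library, compared with 47 of 160 processed transcripts, and 14 of the 15 rows at 0 throughout were processed transcripts. The level was concentrated in few genes: 9 genes averaged 100 CPM or more, 58 lay from 10 to 100, 69 from 1 to 10 and 21 under 1. The 25 highest genes carried 65.4% of the summed level. Genes with a KRAB match had a median of 5.31 CPM per kilobase of row and genes without one 13.2, both given as descriptions.

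Zfp865 had the highest summed level, 215 CPM over the 12 libraries, and its 20 fingers are without a KRAB match. Its counts were 883, 1005 and 1059 in WT hippocampus, 1026, 877 and 1033 in 5×FAD hippocampus, 946, 1067 and 760 in WT cortex and 850, 561 and 994 in 5×FAD cortex. No group stood apart. Zfp644, a partner of the histone methyltransferases G9a and GLP, followed with 198 CPM, and its WT cortex library 3 was low at 281 counts against 727 to 1135 in the other 11. Zfp638, an RNA-binding nuclear matrix protein that also takes part in silencing unintegrated retroviral DNA, had 184 CPM, with group means from 165 ± 3.84 in 5×FAD cortex to 200.4 ± 17.97 in WT hippocampus. Its 11 rows made it the gene with the most annotated non-coding forms. Zfp316, a KRAB gene with a single row, had 470 to 813 counts in WT libraries of both regions and 200 to 587 in 5×FAD ones, with the lowest in 5×FAD cortex 2. Zfp687, which works with Zfp592 in a chromatin complex, had 161 CPM, and Zfp592 itself had 24 to 49 counts in WT hippocampus and 19 to 33 in all other libraries.

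Zfp445, a KRAB protein that keeps imprinted marks, stood out per length. Its row ENSMUST00000216243 (chromosome 9, 122853599 to 122855380) had 77.4 CPM per kilobase and ENSMUST00000214162 had 61.6, the highest levels per length of all 341 rows, ahead of rows of Zfp369, Zfp740, Zfp865, Zfp451, Zfp697 and Zfp687 at 49.2 to 26.2. The summed counts of Zfp445 were 494, 514 and 596 in WT hippocampus, 509, 560 and 489 in 5×FAD hippocampus, 498, 563 and 402 in WT cortex and 616, 429 and 469 in 5×FAD cortex. With a mean coefficient of variation within groups of 8.33%, it was among the steadiest of the high genes, as was Zfp369 with 7.80%. Zfp369, a KRAB relative of Zfp110, the neurotrophin receptor interacting factor, had group means from 118 ± 7.504 to 129.5 ± 7.19 CPM. Zfp110 itself was lower, with 16 to 81 counts.

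Zfp740 behaved differently. Its counts were 1205, 787 and 1304 in WT hippocampus and 796, 1273 and 284 in 5×FAD hippocampus. In cortex they were 499, 620 and 340 in WT and 1340, 305 and 1582 in 5×FAD. The libraries of 1 group thus ranged from 305 to 1582 counts, and the genotypes overlapped in both regions. Nearly all of these counts, 92.9%, fell on ENSMUST00000119830, the row with the GC donor shown above. Of this row, 77.6% is untranslated and 13.6% coding sequence of the coding transcripts, and 0.0539% of its 31-base words were found in no other transcript.

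**Figure D2:**
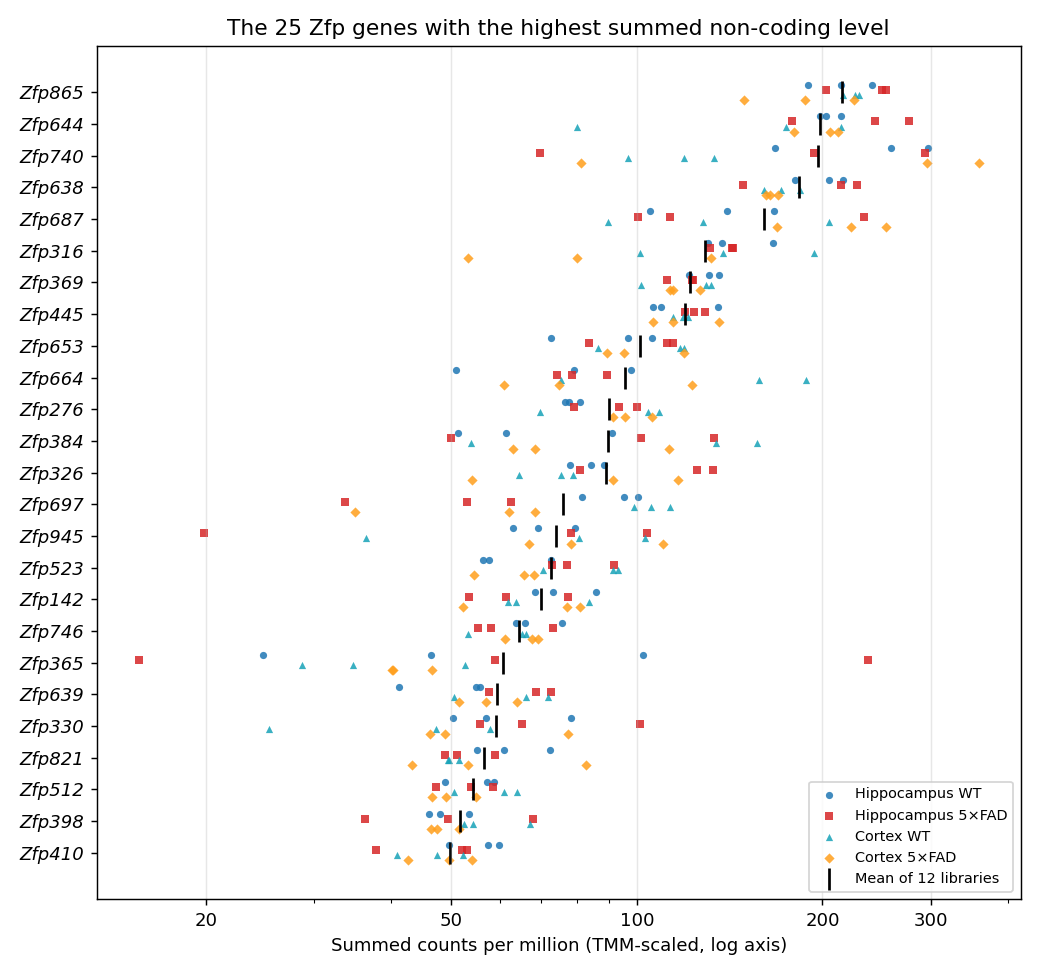
Summed level of the 25 Zfp genes with the highest mean, in CPM on a log axis, with 1 point per library and the mean of the 12 libraries as a black bar. Groups interleave in nearly every gene, Zfp445 and Zfp369 are tight, and Zfp740, Zfp365 and Zfp945 spread widely. Zfp697 has its 6 WT libraries above its 6 5×FAD libraries.

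Genes with a well-studied role were described as a fixed list of 28, of which 17 had rows. Zfp326, a subunit of the DBIRD complex that links transcription with splicing, had 330 to 575 counts in hippocampus and 203 to 530 in cortex. Zfp746 (PARIS), a parkin substrate that represses the Pgc-1α gene, had 238 to 333 counts in hippocampus and 187 to 308 in cortex. The KRAB silencer Zfp809, known for recognising the primer binding site of murine leukaemia virus, had 18 to 40 counts in hippocampus and 21 to 42 in cortex. Zfp932, a KRAB silencer of endogenous retroviruses, had 37 to 61 and 30 to 59. None of these separated the genotypes. Zfp568, which silences a placental Igf2 transcript, had 0 to 11 counts, Zfp217, a repressor known from human cancers, 0 to 14, and Zfp423, a regulator of cerebellar and fat cell development, 2 to 13, near the floor of 3 counts. Zfp143, an activator of small nuclear RNA genes, had 7 to 24 counts, Zfp382 9 to 19, Zfp536, a neuronal repressor, 28 to 58, and Zfp346, which binds double-stranded RNA, 84 to 146. No gene of the list passed the test in any comparison below.

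The 5×FAD and WT mice were compared within each region, which is the comparison the series was made for, with edgeR's quasi-likelihood test over all rows and over counts summed per gene, adjusted by Benjamini-Hochberg. In hippocampus, 0 of 205 Zfp rows and 0 of 120 Zfp gene sums had an adjusted p under 0.05. Over all features the share called was 0.0183% of rows and 0.0529% of gene sums, so few calls were made anywhere. At an unadjusted p under 0.05 there were 8 Zfp rows and 7 gene sums, against 7.58% and 8.68% of all features, and DESeq2 also called 0 members. The CPM ranges of the genotypes did not overlap in 28 of the 205 rows and in 12 of the 120 sums. The same held for 15.8% of all rows and 16.7% of all sums, which the Zfp counts did not exceed.

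In cortex, 0 of 204 rows and 0 of 120 sums were called by edgeR's test, beside 0.0545% and 0.0175% of all features. DESeq2 called 0, and 9 rows and 7 sums had an unadjusted p under 0.05 (5.34% and 6.68% of all). Genotypes did not overlap in 21 rows (12.2% of all rows) and 15 sums (13.1% of all). The median log2 difference of the Zfp sums, 5×FAD minus WT, was 0.10 in hippocampus and 0.02 in cortex, beside 0.03 and 0.00 over all sums. The hippocampal median was -0.02 without 5×FAD 1, 0.18 without 5×FAD 3 and -0.01 without 5×FAD 1 and 2. The cortical one was -0.06 without 5×FAD 1 and 2, and from -0.02 to 0.03 with any 1 library left out, so neither median kept its sign. By type, retained introns had a median of -0.01 in hippocampus and 0.06 in cortex, and processed transcripts 0.16 and -0.15. With 3 libraries a group the median standard error of a Zfp sum was 0.33 in hippocampus and 0.31 in cortex on this scale. Differences of that size were not detectable for a typical member. Larger ones were not called either, such as -1.07 ± 0.36 for Zfp949 in hippocampus and -0.94 ± 0.25 for Zfp697 in cortex. The 0 calls therefore do not show that differences of such sizes are absent. Summed oligodendrocyte markers (5 of 8 had rows) ranged from 349 to 441 CPM in WT against 504 to 578 in 5×FAD hippocampus, and from 298 to 476 against 535 to 610 CPM in cortex. The median log2 difference of the 5 markers was -0.08 in hippocampus and 0.54 in cortex, so in hippocampus the sum and the median differed in sign. Astrocyte markers (5 of 6 had rows) had 1427 to 1551 CPM in WT hippocampus against 529 to 1191, and microglial ones (2 of 9 had rows) 19.4 to 32.5 CPM against 40.2 to 187. The median of the 4 astrocyte markers tested was 0.02 in hippocampus, and in cortex the sums of both lists overlapped between genotypes (958 to 1604 against 962 to 1523 CPM and 36.7 to 54.0 against 19.7 to 232 CPM). Lists of tissue markers differed by genotype as well. Cortical markers (7 of 12 had rows) had 169 to 179 CPM in WT against 180 to 275 in 5×FAD hippocampus, and overlapped in cortex. Striatal markers (5 of 8 had rows) had 230 to 385 CPM in WT against 491 to 516 in 5×FAD cortex, and overlapped in hippocampus. The hippocampal list overlapped in both regions, with a median log2 difference of -0.70 in hippocampus. No listed marker was called by genotype, and the part of the markers in the genotype values was not tested.

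The gene with the smallest unadjusted p in both regions was Zfp697, which encodes 11 fingers and no KRAB match. It lies on chromosome 3 from 98382461 to 98753812. Its summed counts were 379, 448 and 442 in the WT libraries against 218, 271 and 137 in the 5×FAD libraries of hippocampus, and 475, 460 and 371 in the WT libraries against 310, 233 and 154 in the 5×FAD libraries of cortex. All 3 5×FAD libraries lay under all 3 WT libraries in each region. The log2 difference was -0.85 ± 0.25 (SE; adjusted p = 0.526, edgeR quasi-likelihood test) in hippocampus and -0.94 ± 0.25 (adjusted p = 0.723) in cortex. Zfp697 was the only Zfp gene whose genotypes did not overlap in the same direction in both regions, 1 of 117 tested in both, or 0.855%, beside 1.68% of all sums. The regions came from the same mice, so the second is not an independent repeat of the first.

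The 2 rows of Zfp697 differed between genotypes in opposite directions. ENSMUST00000196194, a processed transcript of 2 exons (98382481 to 98412743), had 352, 421 and 397 counts in the WT libraries against 182, 231 and 51 in the 5×FAD libraries of hippocampus. In cortex the WT libraries had 429, 417 and 333, and the 5×FAD libraries 256, 176 and 60. The other row, ENSMUST00000196741, had 27, 27 and 45 in the WT libraries against 36, 40 and 86 in the 5×FAD libraries of hippocampus, and 46, 43 and 38 in the WT libraries against 54, 57 and 94 in the 5×FAD libraries of cortex. The first row was thus lower and the second higher in 5×FAD, with no overlap in cortex for either, and library 5×FAD 3 was the most extreme each time. Of the words of ENSMUST00000196194, 57.3% were specific to the gene, and 95.8% of its bases lay outside the exons of coding transcripts. The other words also occurred in transcripts of other genes, so the counts of this row are uncertain between Zfp697 and those genes. Without 5×FAD libraries 1 and 2, the summed log2 difference was -1.43 in hippocampus and -1.60 in cortex (adjusted p = 0.144 and 0.187 with edgeR, with only 5×FAD 3 left). Without library 3 it was -0.63 and -0.70. Over 16 alternatives each, the adjusted p ranged from 0.144 to 0.895 in hippocampus and from 0.114 to 0.891 in cortex.

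**Figure D3:**
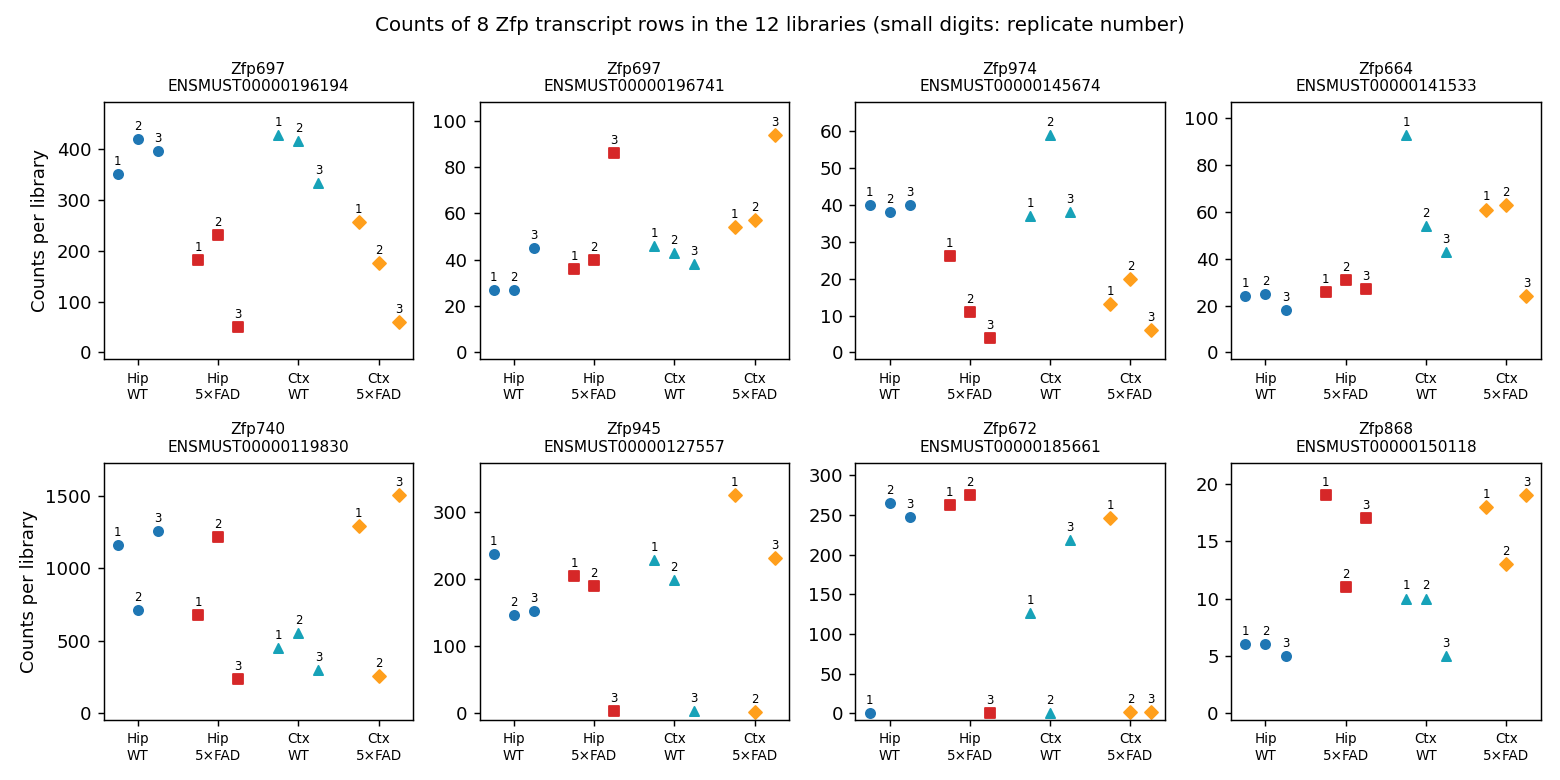
Counts of 8 Zfp transcript rows (vertical axes from 0, 1 panel per row) in the 4 groups, with 1 point per library and its replicate number beside it. Both rows of Zfp697 separate the genotypes in cortex in opposite directions, Zfp974 is lower and Zfp868 higher in 5×FAD, and Zfp945 and Zfp672 are near 0 in some libraries of several groups.

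At the level of rows, 3 of 194 tested in both regions kept the genotypes apart in the same direction in each, beside 1.38% of all rows. One was the Zfp697 row just described. Zfp868, a KRAB gene of chromosome 8 with 9 fingers, was higher through its short retained-intron row ENSMUST00000150118 (69612420 to 69614063). Its counts were 6, 6 and 5 in the WT libraries against 19, 11 and 17 in the 5×FAD libraries of hippocampus, and 10, 10 and 5 in the WT libraries against 18, 13 and 19 in the 5×FAD libraries of cortex. The log2 difference was 1.61 ± 0.39 (adjusted p = 0.547, edgeR) in hippocampus and 0.97 ± 0.33 (adjusted p = 0.907) in cortex. All these counts were at most 19, so counting error alone was large, and 71.5% of the row's words were specific to the gene, the gene it shared most with being Zfp869.

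The third row was ENSMUST00000145674 of Zfp974, a gene of chromosome 7 with 21 fingers. It had 40, 38 and 40 counts in the WT libraries against 26, 11 and 4 in the 5×FAD libraries of hippocampus, and 37, 59 and 38 in the WT libraries against 13, 20 and 6 in the 5×FAD libraries of cortex. The log2 difference was -1.35 ± 0.60 (adjusted p = 0.663, edgeR) and -1.75 ± 0.48 (adjusted p = 0.844). Again 5×FAD 3 was the lowest library in both regions. Only 48.9% of the words of this row were specific to Zfp974, and it shared most with Zfp780b, so its counts are uncertain between these genes. The gene sum of Zfp974 was lower in cortex (-0.77 ± 0.25, adjusted p = 0.723) and overlapped in hippocampus, where the counts were 93, 88 and 75 in WT and 82, 44 and 49 in 5×FAD.

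A pair of neighbouring KRAB genes on chromosome 7, Zfp976 (42609526 to 42642588) and Zfp975 (42660105 to 42692742), lies 17516 bases apart. Both were higher in 5×FAD cortex without overlap. Zfp976 had 102, 99 and 74 counts in the WT libraries against 143, 135 and 242 in the 5×FAD libraries of cortex, a log2 difference of 0.88 ± 0.25 (adjusted p = 0.723, edgeR). Zfp975 had 27, 36 and 23 in the WT libraries against 45, 57 and 47 in the 5×FAD libraries of cortex (0.78 ± 0.27, adjusted p = 0.723). In hippocampus Zfp976 overlapped (130, 117 and 96 against 160, 107 and 91), and Zfp975 had 35, 49 and 42 counts against 78, 86 and 42. The higher hippocampal values of Zfp975 were those of 5×FAD libraries 1 and 2, and without them its log2 difference there was 0.20 instead of 0.88. For Zfp976 the highest library was 5×FAD 3, without which the cortical difference was 0.60 instead of 0.88. Of the words of the Zfp976 row, 61.4% were specific to the gene, with Zfp975 the gene it shared most with. The third such gene with rows within 200000 bases, Zfp141, had log2 differences of -0.22 ± 0.36 and 0.14 ± 0.39.

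Other genes separated the genotypes in 1 region only. Zfp949, a KRAB gene, had 92, 45 and 64 counts in the WT libraries against 36, 23 and 25 in the 5×FAD libraries of hippocampus (log2 difference -1.07 ± 0.36, adjusted p = 0.527, edgeR) but 41, 19 and 14 against 57, 18 and 16 in cortex. Zfp111 had 34, 53 and 27 in the WT libraries against 56, 59 and 66 in the 5×FAD libraries of hippocampus (0.86 ± 0.29, adjusted p = 0.527) and overlapped in cortex (0.02 ± 0.26). Below these, rows of Zfp846 and Zfp597 were lower in 5×FAD hippocampus (-0.93 ± 0.34 and -1.26 ± 0.48, adjusted p = 0.625 and 0.638), and a row of Zfp248 was lower in 5×FAD cortex (-0.91 ± 0.29, adjusted p = 0.876). None of them passed the adjustment.

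Without 5×FAD libraries 1 and 2, 0 Zfp rows and 0 Zfp sums were called by edgeR in either region, with 23 of 237 rows and 16 of 129 sums at an unadjusted p under 0.05 in hippocampus and 16 of 233 and 10 of 129 in cortex. Over all features these were 2662 of 25708 rows and 1640 of 12320 sums in hippocampus and 1578 of 25547 and 864 of 12302 in cortex, shares near those of the Zfp genes. The row of Zfp974 then differed by -3.09 in hippocampus and -2.96 in cortex, and the row of Zfp868 by 1.74 and 1.102 on the log2 scale. Zfp949 and Zfp111 differed by -1.22 and 1.005 in hippocampus. Zfp976 differed by 1.31 in cortex and, with the other sign than in all libraries (0.25), by -0.12 in hippocampus. These values set a single 5×FAD library against 3 WT libraries, and that library was 5×FAD 3.

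**Figure D4:**
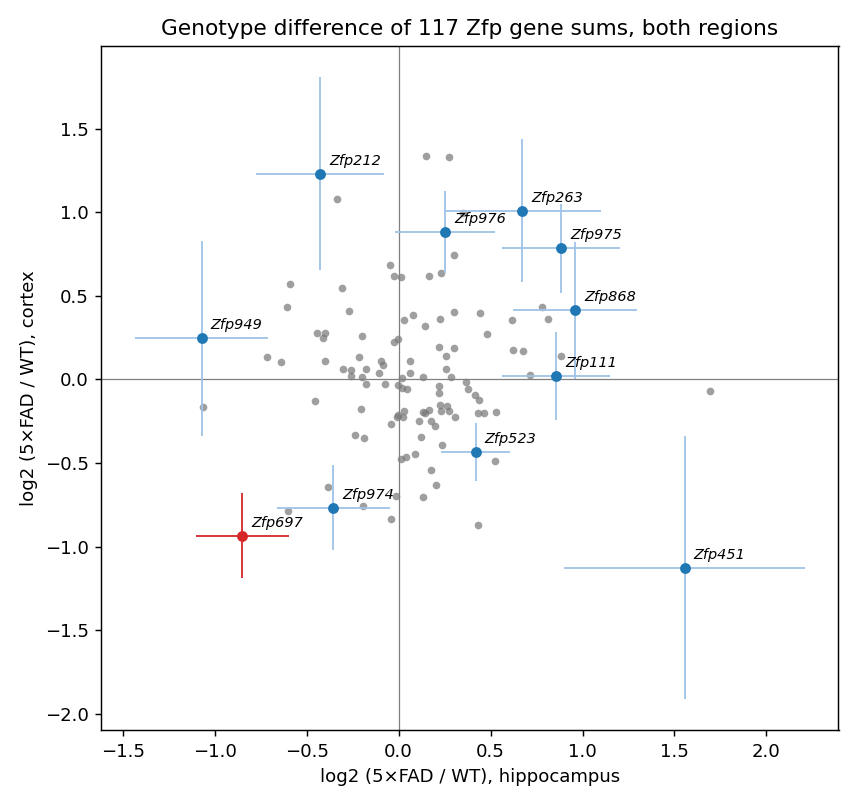
Log2 difference between 5×FAD and WT of 117 Zfp gene sums tested in both regions, hippocampus on the horizontal and cortex on the vertical axis. Labelled genes have bars of 1 standard error in each direction, and Zfp697, in red, lies at -0.85 and -0.94. Most genes lie near 0 on both axes, and Zfp523, Zfp212 and Zfp451 have opposite signs in the 2 regions.

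Whether the genotype difference itself differed between regions was tested as an interaction over the 12 libraries. With edgeR, 0 of 224 rows and 0 of 126 sums were called, beside 0.00812% and 0.0% of all features, DESeq2 called 0, and 11 rows and 6 sums had an unadjusted p under 0.05 (6.89% and 7.0% of all). Zfp523, a paralog of Zfp143, had the smallest p. Its counts were 268, 264 and 319 in the WT libraries against 299, 334 and 375 in the 5×FAD libraries of hippocampus, and 391, 328 and 322 in the WT libraries against 309, 246 and 241 in the 5×FAD libraries of cortex. In CPM the genotypes did not overlap in either region, higher in 5×FAD in hippocampus and lower in cortex, and the difference of the differences was 0.82 ± 0.25 (adjusted p = 0.648), or 1.21 without 5×FAD libraries 1 and 2. Zfp212 also had opposite signs without overlap, with 19, 20 and 19 against 9, 13 and 16 counts in hippocampus and 3, 12 and 6 against 13, 10 and 28 in cortex (-1.69 ± 0.68, adjusted p = 0.675). With 3 counts in a WT cortex library, Zfp212 reached the floor. The share of all sums with opposite signs and no overlap was not counted.

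Hippocampus and cortex were then compared over both genotypes. The tissue labels were checked first on rows of marker genes. Summed hippocampal markers reached 254 to 297 CPM in WT hippocampus and 100 to 121 in WT cortex, with Man1a, Tdo2 and Zbtb20 higher in hippocampus, and the cortical markers Foxp2, Lamp5, Mef2c and Rorb were lower there. The striatal markers Drd1, Ppp1r1b and Rgs9 were also higher in the cortex libraries. Kl, a choroid plexus marker, was higher in hippocampus, where the sum of that list (2 of 8 had rows, Folr1 at 0) was 16.8 to 33.4 CPM in WT against 3.66 to 4.06 in WT cortex. No Zfp gene sum was called (0 of 126), while 6.82% of all sums were, and 5 Zfp sums had an unadjusted p under 0.05 (3.97%) against 19.6% of all. DESeq2 called 0 as well. Among other protein-coding genes, 4.02% of sums were called, and 1 of 14 Zbtb sums. That Zbtb sum was Zbtb20, the hippocampal marker named above.

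The region medians were also small. For the Zfp sums the median log2 difference, hippocampus minus cortex, was 0.02, with quartiles of -0.18 and 0.19, beside -0.25 and 0.23 over all sums. KRAB genes (62 tested) had a median of 0.03 and the others (64) 0.01. Zfp180 alone did not overlap between the regions (lower in hippocampus, -0.53 ± 0.20, adjusted p = 0.163, edgeR), beside 4.71% of all sums. Zfp318, Zfp931, Zfp846 and Zfp747 were the other 4 with an unadjusted p under 0.05, at log2 differences of -0.55, 0.95, 0.57 and -0.89.

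Among rows, 1 of 224 Zfp rows was called, beside 2.55% of all rows. This was ENSMUST00000141533 of Zfp664, a processed transcript of 4 exons and 1771 bases on chromosome 5 (124862764 to 124902693). Its counts were 24, 25 and 18 in the WT libraries against 26, 31 and 27 in the 5×FAD libraries of hippocampus, and 93, 54 and 43 in the WT libraries against 61, 63 and 24 in the 5×FAD libraries of cortex. All cortex libraries but 5×FAD 3 were above all hippocampus libraries. The log2 difference was -1.24 ± 0.28 (adjusted p = 0.0477, edgeR), and 82.3% of the row's words were found in no other transcript. The call was kept in 7 of 23 alternatives and lost without 5×FAD libraries 1 and 2 (-0.69, adjusted p = 0.527). It was also lost with the library number as a replicate block (-1.15, adjusted p = 0.145). The fit reported treats the 12 libraries as independent, although both regions came from the same mice. Its relation to the striatal markers, which were also higher in cortex, was not tested. It was lost when any 1 library was left out, other than cortex 5×FAD 3, without which the adjusted p was 0.00986; the other 11 gave 0.0687 to 0.128.

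The other rows of Zfp664 were not called. ENSMUST00000199154, a single-exon row, had 112 to 179 counts in hippocampus and 110 to 174 in cortex. ENSMUST00000134473, mostly untranslated sequence of the coding transcripts, ranged from 66 to 302 and from 94 to 505. The gene sum differed by -0.49 ± 0.25 (adjusted p = 0.331, edgeR). The CPM of the regions did not overlap in 3 of the 224 rows, beside 2.98% of all rows, and none of these passed the test. ENSMUST00000135374 of Zfp326 had 14 to 24 counts in hippocampus and 5 to 13 in cortex (1.06 ± 0.26, adjusted p = 0.0618), and rows of Zfp821 (0.36 ± 0.11, adjusted p = 0.141) and Zfp180 (-0.53 ± 0.19, adjusted p = 0.210) were the others without overlap.

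Some rows varied widely between libraries of 1 group. Of 69 Zfp rows with at least 100 counts in some library, 11 (15.9%) had at most 3 in another, beside 11.2% of all rows and 7.95% of rows with an Ensembl name. ENSMUST00000185661 of Zfp672, a retained intron of 3125 bases, had 0, 265 and 248 counts in the WT libraries against 263, 275 and 0 in the 5×FAD libraries of hippocampus, and 127, 0 and 219 in the WT libraries against 246, 1 and 1 in the 5×FAD libraries of cortex. Low and high libraries occurred in every group. The other 2 Zfp672 rows had 6 to 25 and 15 to 67 counts. Only 16.3% of the words of ENSMUST00000185661 were found in no other transcript. The coding transcripts of Zfp672 were not among the member rows, so whether other transcripts took up the counts was not tested.

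ENSMUST00000132870 of Zfp365, a protein also known as DBZ that binds the neuronal scaffold Disc1, had 324 counts in WT hippocampus 2, 942 in 5×FAD hippocampus 2 and 3 to 9 in the other 10 libraries. Its sister row ENSMUST00000138543 was steadier, at 60 to 235. The row ENSMUST00000145138 of Zfp384, a retained-intron form of 12 exons, had 343 counts in 5×FAD hippocampus 2 and 0 to 2 elsewhere. In these rows 4.07% and 0.840% of words were found in no other transcript. Further rows of this kind belonged to Zfp263, Zfp444, Zfp446, Zfp451, Zfp687, Zfp952 and, with 2 to 106 counts, Zfp384 again. The case of Zfp945, a KRAB gene, differed from these. Its row ENSMUST00000127557 had 91.7% of its words in no other transcript, yet 4 counts in 5×FAD hippocampus 3, 3 in WT cortex 3 and 2 in 5×FAD cortex 2 against 146 to 325 in the other 9 libraries.

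The spread went with shared sequence. Over the 139 rows with a mean of at least 5 CPM, the mean coefficient of variation within groups had a median of 28.3%. It was 46.8% in the 29 rows with under 10% of their words in no other transcript, 37.5% in the 43 rows from 10 to 50%, and 21.3% in the 67 rows above that. The median level of these rows was 15.4, 10.3 and 13.3 CPM in the same order. Whether level, row length or transcript type had a part in the spread was not tested. Rows of other protein-coding genes had a median of 25.6%, to be set beside the 28.3% of the Zfp rows. Summed per gene, 100 Zfp genes had a median of 22.4%. These are descriptions over rows, which share libraries and, within a gene, sequence.

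**Figure D5:**
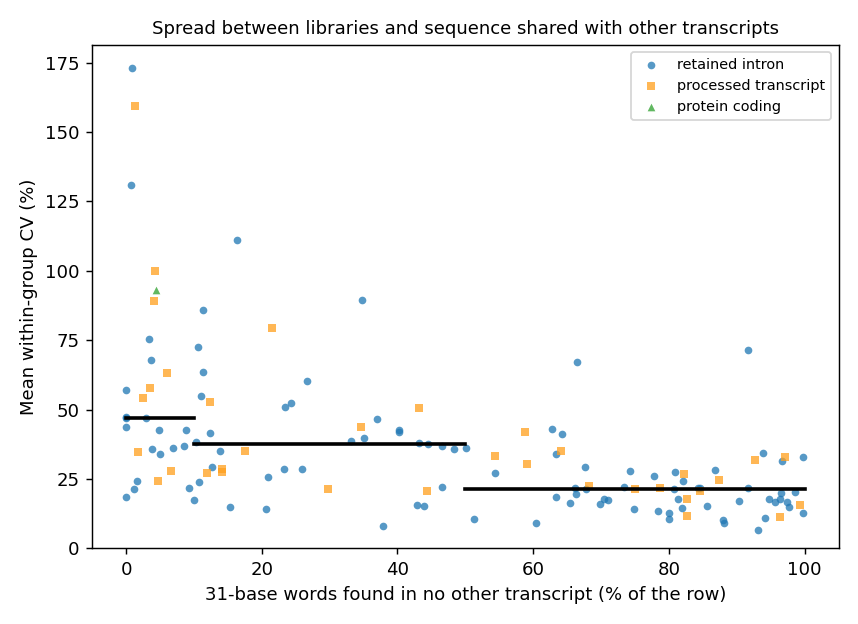
Mean coefficient of variation within groups (vertical axis, percent) of the 139 Zfp rows with a mean of at least 5 CPM, against the percent of the row's 31-base words found in no other annotated transcript. Black lines are the medians under 10%, from 10 to 50% and above, at 46.8, 37.5 and 21.3%.

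The partners of KRAB proteins were read from the same table as a list of 21 genes, among them Trim28, Setdb1, the heterochromatin proteins and the DNA methyltransferases. Rows were found for 20, and 18 or 19 were tested per comparison. None was called by edgeR in any of the 4 comparisons. At an unadjusted p under 0.05, Dnmt1, the maintenance DNA methyltransferase, and Hdac1, a histone deacetylase, were higher in 5×FAD hippocampus by 0.94 ± 0.32 and 0.70 ± 0.23 on the log2 scale (adjusted p = 0.527 and 0.526), and no listed gene reached that level in cortex. These are 2 of 19 listed genes, near the 8.68% of all sums at that level in hippocampus. The median log2 difference of the list was 0.12 in hippocampus and 0.07 in cortex.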

How the data were processed

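The data were RNA sequencing counts of 12 libraries, 3 per region and genotype. The authors deposited a table of counts per transcript, whole numbers that are not normalized. Ribosomal RNA was depleted, libraries were stranded and paired-end, and reads were trimmed with Trimmomatic 0.36 per the labels. The submitters' processing notes also name edgeR. The aligner, counter, build and annotation of the table are not given in the sources used here. Columns left out numbered 0.

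Rows were matched by Ensembl identifier to GENCODE vM21 (GRCm38). The table also held 2436 assembled rows, and 225 Ensembl rows found no match. Strand use in counting is not stated, so overlapping and antisense genes may share reads. Counts per row, and summed per gene or assembled locus, were compared in R 4.3.3 by edgeR 4.0.16 (filterByExpr, TMM, glmQLFit, glmQLFTest), adjusted by Benjamini-Hochberg over the whole table at 0.05. Genotype was tested within 6 libraries of a region, region and interaction in 12 libraries. A standard error is the log2 difference divided by the square root of F. Fingers were counted with the pattern C-x(2,4)-C-x(12)-H-x(3,5)-H, and KRAB domains with a pair of short signatures that miss diverged ones. Shared sequence was measured with words of 31 bases. CPM used TMM scaling. Figures used matplotlib 3.10.9. The scripts were tested on simulated data.

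Named genes were those called, the 5 smallest p-values of each genotype comparison, the 8 highest genes and rows by level, a list of known roles, and rows with at least 100 counts in one library and at most 3 in another. Genes named beside these were chosen after their values were seen. Members and lists were chosen with earlier results of these data known. Replicate libraries of a group differed by more than counting noise, with chi-square per degree of freedom of 20.8 to 33.0 over the 12 pairs. Precision rests on 3517967 to 5014389 counts per library, where 3 counts correspond to 0.598 to 0.853 CPM, which covers counting error only. Alternatives were DESeq2 1.42.0, DESeq2 size factors or library size alone in edgeR, no filter, robust estimation, a minimum of 10 counts in each library, a term for Xist over 1000 counts, the replicate block, other sets of libraries and leaving out each library. Leaving out the 5×FAD libraries with high Xist was added after the data were seen.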

Additional observations from a re-analysis of the deposited data

How the results depend on the processing

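In the 8 comparisons, 134 of 152 alternative counts of called Zfp members were the same as reported, and the genotype and interaction comparisons had 0 called members under every alternative run. For hippocampus against cortex, the count of called rows, 1 as reported, was 3 with DESeq2 (Zfp664, Zfp263 and Zfp821) and 0 with no filter, with only the 6 WT libraries, with only the 6 5×FAD libraries and without the 5×FAD libraries with high Xist. With each library left out in turn it ranged from 0 to 1, where the 1 was Zfp664 without 5×FAD cortex 3 (adjusted p = 0.00986), Zfp326 without WT cortex 2 (adjusted p = 0.0398) and Zfp946 without 5×FAD hippocampus 2 (adjusted p = 0.0171). The count of called gene sums, 0 as reported, ranged from 0 to 1 in the same way: Zfp946 was called without 5×FAD hippocampus 2 (adjusted p = 0.00816) and Zfp931 without 5×FAD hippocampus 3 (adjusted p = 0.0362). It was 1 (Zfp444) without the 5×FAD libraries with high Xist. The cause of these moves was not tested, beyond fewer libraries or more rows entering the fit.

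Of the 339 values of 21 named member results, 323 kept their direction and side of the threshold, 16 lost the call, all of them for the Zfp664 row, and 0 reversed. The adjusted p of that row ranged from 0.00412 to 0.622, and its log2 difference was -0.69 instead of -1.24 without the 5×FAD libraries with high Xist. With the library number as a replicate block, 0 Zfp rows and 0 sums were called in the region comparison, and the adjusted p of the Zfp664 row was 0.145. The block changed no other call on members. Same-numbered libraries of the 2 regions correlated at 0.02, 0.00 and 0.02 in WT and 0.02, 0.04 and 0.12 in 5×FAD over rows, and at 0.01, -0.04 and -0.04 in WT and 0.06, 0.08 and 0.23 in 5×FAD over gene sums. High Xist also fell on the same numbers in both regions. As the labels do not tie numbers to mice and not every correlation was over 0.1, the numbers were not taken as pairs, and whether they mark the same mouse was not settled. Not every library correlated best with its own number. Over all features, edgeR and DESeq2 called 4 against 127 rows and 6 against 82 sums by genotype in hippocampus, 12 against 102 and 2 against 53 in cortex, 2 against 99 and 0 against 23 for the interaction, and 628 against 1378 rows by region. Under the replicate block, edgeR called 0 rows in each genotype comparison and 205 rows and 479 sums by region. In the genotype comparisons that block joined WT and 5×FAD libraries of equal number, which are different mice. In the region comparison it joined libraries of equal number and genotype. Leaving out a library of a group of 3 assumes that the others vary alike, and with 3 libraries a group, members of low count limit what could be seen.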
